A study of Mus musculus with 6 samples.

Results

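Foxp3, Ikzf2, Ikzf4, Gpr83, Il10, Nrp1, Lrrc32 and Ebi3 are genes used to recognise regulatory T cells or to describe how these cells suppress other immune cells. They were chosen by symbol, and all 8 were found among the 24047 rows of the deposited count table and among the 24043 rows of the FPKM table. RNA had been sequenced from 3 libraries labelled Srsf1-cKO, which carry floxed Srsf1 alleles and a Cre transgene labelled dLck.Cre, and from 3 libraries labelled wild type (WT). All came from CD4 T cells of spleens (mice at 7 weeks of age, strain label B6.129), in n = 3 mice per genotype. Naive cells had been isolated by their CD4 and CD62L, activated for 72 h with anti-CD3 (0.5 µg/mL) and anti-CD28 (1 µg/mL) and restimulated for 4 h with PMA (100 ng/mL) and ionomycin (1 µM), in both genotypes. The labels call the cells Th0 effector cells, name no cytokine added to the cultures and name no step that removes regulatory T cells, which can also carry CD62L. Whether WT mice carried floxed alleles or Cre was not stated.

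Regulatory T cells are CD4 T cells that restrain immune responses and so protect against autoimmunity. Their identity depends on Foxp3, a forkhead transcription factor that acts together with the Ikaros family factors Helios (Ikzf2) and Eos (Ikzf4). Most Foxp3+ cells form in the thymus, while others arise from naive T cells that meet antigen in the presence of transforming growth factor beta. They suppress partly through contact and partly through cytokines such as interleukin 10 (IL-10). Several of these genes are not restricted to this lineage, since effector T cells, B cells and myeloid cells can express Il10 and Ebi3.

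The libraries held between 8573465 and 10184268 gene counts in the libraries labelled Srsf1-cKO, and between 7781283 and 9650828 in WT libraries. The targeted gene did not bear out the labels. Srsf1 averaged 514 ± 39.1 CPM (counts scaled to the size of the library) in the libraries labelled Srsf1-cKO and 495 ± 42.1 CPM in WT libraries (SD, n = 3 each), with an edgeR adjusted p = 0.78, and a count over the whole gene need not show the loss of single exons. Groups are therefore called by their labels, and each direction given compares the libraries so labelled with WT. T cell markers were present, with summed levels of the 8 listed genes between 2133 and 2887 CPM in the libraries labelled Srsf1-cKO and between 2493 and 2681 CPM in WT libraries. One of the 8, Cd3g, was called higher, at 204 ± 35.7 CPM in the libraries labelled Srsf1-cKO and 124 ± 35.3 CPM in WT libraries (edgeR adjusted p = 0.0452). Across all 10454 genes that passed the filter on low counts, edgeR's quasi-likelihood test called 18.4% at an adjusted p under 0.05. Of all tested genes 8.9% were called higher and 9.5% lower, and the CPM values of the groups did not overlap for 39.4%. With scaling by library size alone the split was 12.1% higher and 6.78% lower.

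The 8 genes did not move as a block. All 8 passed the filter, and 3 rose, 1 fell and 4 did not pass the test, against 18.4% of all tested genes called. Il10, Foxp3 and Gpr83 rose, Ikzf4 fell, and Nrp1, Ikzf2, Lrrc32 and Ebi3 did not pass. Their median log2 fold change was 0.59, beside 0.0051 over all tested genes. These are bulk libraries, so more regulatory T cells and more RNA of these genes per cell cannot be told apart.

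**Figure D1:**
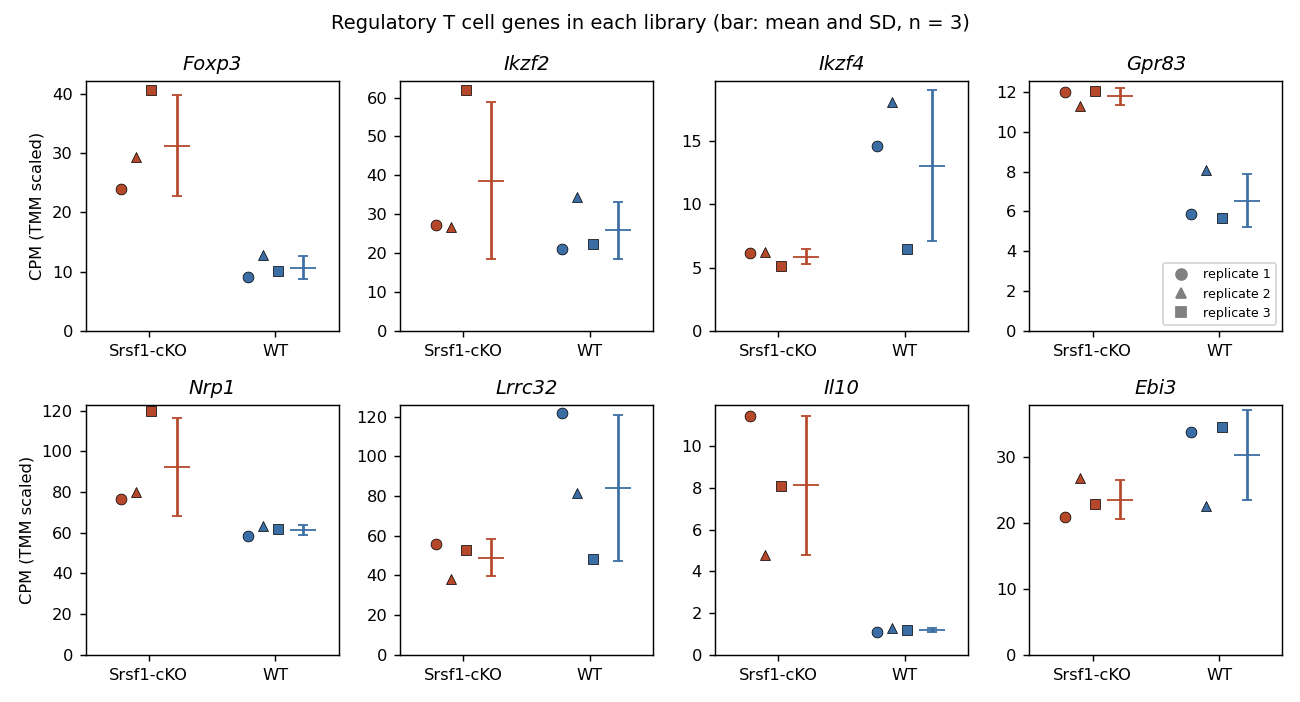
Level of each gene in CPM (TMM scaled, linear axis from 0) in the 3 libraries labelled Srsf1-cKO and the 3 WT libraries. Symbols mark the replicate number and bars the mean and SD. Foxp3, Gpr83, Il10, Nrp1 and Ikzf4 have no overlap between the groups, as is so for 39.4% of all tested genes. The square of Srsf1-cKO replicate 3 stands highest for Foxp3, Ikzf2, Gpr83 and Nrp1.

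Foxp3, the lineage-defining transcription factor, was 2.92 times as abundant in the libraries labelled Srsf1-cKO as in WT libraries by group means. It stood at 23.9, 29.4 and 40.6 CPM in the libraries labelled Srsf1-cKO, against 9.07, 12.9 and 10.2 CPM in WT libraries. The lowest of the first 3 values lay well above the highest WT value. The group means were 31.3 ± 8.50 CPM in the libraries labelled Srsf1-cKO and 10.7 ± 1.96 CPM in WT libraries (SD, n = 3 each), from 916 reads in all in the libraries labelled Srsf1-cKO and 258 in WT libraries. On the log2 scale this was a change of 1.55 (SE 0.24; interval at 95% confidence 1.01 to 2.09; edgeR adjusted p = 0.00761). Without WT replicate 1 the fold change was similar (1.42), with an edgeR adjusted p = 0.0532. In the GENCODE annotation 4 genes overlap the Foxp3 locus, Ppp1r3f, Gm36995 and Ccdc22 on the opposite strand and Flicr on the same strand. Whether reads were counted by strand is not stated. Ppp1r3f averaged 2.67 CPM in the libraries labelled Srsf1-cKO and 3.91 CPM in WT libraries, and Ccdc22 averaged 15.4 CPM in the libraries labelled Srsf1-cKO and 17.2 CPM in WT libraries. Neither Ppp1r3f nor Ccdc22 passed (edgeR adjusted p = 0.255 and 0.584). Flicr and Gm36995 have no row among the counts, and their part in the Foxp3 reads was not tested.

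RefSeq lists 2 start sites for Foxp3, and promoters of 4 of the 8 genes are held in the table used here. The windows of the pair of called genes among them are shown to give the sequence next to the start of genes that rose; each runs from 250 bases before a start site to 50 after it, in build GRCm38.p6, and capitals mark matches to the motifs searched. The motifs were the letters TGGAAA for NFAT, TGANTCA for AP-1, AGATAA for factors of the GATA family, TGTTTAC for forkhead factors and AAAGGTCA for NR4A receptors, on both strands, and they were picked with the changes of Nr4a1 and Gata3 known.
Foxp3, downstream start, chrX:7580233-7580532, + strand: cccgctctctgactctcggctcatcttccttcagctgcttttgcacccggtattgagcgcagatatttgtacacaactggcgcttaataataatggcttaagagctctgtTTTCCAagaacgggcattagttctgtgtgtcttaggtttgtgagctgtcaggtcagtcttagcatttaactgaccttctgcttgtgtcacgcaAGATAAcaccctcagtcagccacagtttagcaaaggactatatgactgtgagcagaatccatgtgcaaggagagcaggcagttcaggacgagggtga
Gpr83, chr9:14859960-14860259, + strand: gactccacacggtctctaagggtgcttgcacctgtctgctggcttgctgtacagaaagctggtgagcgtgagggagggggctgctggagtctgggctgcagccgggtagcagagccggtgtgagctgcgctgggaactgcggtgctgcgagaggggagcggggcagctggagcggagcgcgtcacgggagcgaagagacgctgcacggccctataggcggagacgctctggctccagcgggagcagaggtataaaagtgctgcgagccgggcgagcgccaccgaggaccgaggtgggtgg
The Foxp3 window holds an NFAT match on the minus strand that begins at position -140, counted from the start site as 0, and a GATA match on the plus strand that begins at -47. The matches do not overlap. Of 32851 promoter windows of the same length, 21.4% hold the NFAT letters and 11.2% the GATA letters, so both are common. AP-1 letters are in 7.81% of windows, forkhead letters in 3.65% and NR4A letters in 1.51%, and these letters are in neither window shown. No match of any motif lies in the Gpr83 window, nor in the window of the upstream Foxp3 start, which is not shown.

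The Ikaros family partners of Foxp3 differed from it. Ikzf2 encodes Helios, a zinc finger factor common in thymus-derived regulatory T cells and also induced in activated T cells. Its levels were 27.3, 26.7 and 62.05 CPM in the libraries labelled Srsf1-cKO, against 21.1, 34.3 and 22.3 CPM in WT libraries. The groups overlapped, and Srsf1-cKO replicate 3 alone stood apart from the other 5 libraries. With all libraries its log2 fold change was 0.58 (SE 0.34, edgeR adjusted p = 0.261), and it was 0.06 without Srsf1-cKO replicate 3.

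Ikzf4 encodes Eos, a corepressor partner of Foxp3, and it fell while Foxp3 rose. It had 6.16, 6.25 and 5.16 CPM in the libraries labelled Srsf1-cKO, against 14.6, 18.1 and 6.47 CPM in WT libraries. WT replicate 3 was close to the libraries labelled Srsf1-cKO, and its value exceeded the highest of them by a small margin. The fall of 1.16 on the log2 scale (SE 0.35) was near the threshold, with an edgeR adjusted p = 0.0494. Without WT replicate 3 the log2 fold change was -1.50 (edgeR adjusted p = 0.00443), while without any one of the other 5 libraries Ikzf4 did not pass, with edgeR adjusted p between 0.0998 and 0.161. It also did not pass on the FPKM scale (-0.61, limma adjusted p = 0.108). The other family members, Ikzf1, Ikzf3 and Ikzf5, gave no call by edgeR, 1 at an unadjusted p under 0.05 and 1 call by DESeq2. Ikzf1, the gene of Ikaros and the most abundant of these 3, averaged 1043 ± 34.4 CPM in the libraries labelled Srsf1-cKO and 874 ± 173 CPM in WT libraries (edgeR adjusted p = 0.272). Ikzf5 stood at 45.3 ± 9.12 CPM in the libraries labelled Srsf1-cKO and 68.3 ± 11.1 CPM in WT libraries (edgeR adjusted p = 0.0605), and Ikzf3, the gene of Aiolos, at 75.0 ± 1.77 CPM in the libraries labelled Srsf1-cKO and 87.4 ± 19.5 CPM in WT libraries (edgeR adjusted p = 0.387).

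Among the surface molecules, Gpr83 rose. Gpr83 encodes a G protein-coupled receptor found on regulatory T cells. Its levels were 11.99, 11.3 and 12.02 CPM in the libraries labelled Srsf1-cKO, against 5.86, 8.06 and 5.67 CPM in WT libraries. The 3 libraries labelled Srsf1-cKO were nearly equal, and all stood above each WT library. Gpr83 thus had a log2 fold change of 0.85 (SE 0.22; interval at 95% confidence 0.36 to 1.34; edgeR adjusted p = 0.0297). It kept its direction but did not pass without WT replicate 1 (edgeR adjusted p = 0.129), WT replicate 3 (0.0592), or Srsf1-cKO replicate 1 (0.0818), 2 (0.101) or 3 (0.0598).

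Nrp1 encodes neuropilin 1, a receptor for semaphorins and for vascular endothelial growth factor that marks many thymus-derived regulatory T cells in mice. Its values were 76.6, 79.9 and 119.8 CPM in the libraries labelled Srsf1-cKO, against 58.5, 63.1 and 61.9 CPM in WT libraries. The groups did not overlap, as for 39.4% of all tested genes, and Srsf1-cKO replicate 3 was the highest. The log2 fold change of 0.59 (SE 0.18) missed the threshold (edgeR adjusted p = 0.0541, 95% confidence interval 0.17 to 1.01). It was 0.36 without Srsf1-cKO replicate 3, and DESeq2 called it (adjusted p = 0.0286).

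Lrrc32 encodes GARP, which holds latent transforming growth factor beta at the surface of activated regulatory T cells. It stood at 55.9, 38.2 and 52.9 CPM in the libraries labelled Srsf1-cKO, against 121.8, 81.6 and 48.3 CPM in WT libraries. WT replicate 3 lay within the range of the libraries labelled Srsf1-cKO, and the other WT libraries lay above it. Lrrc32 did not pass, at a log2 fold change of -0.78 (SE 0.30, edgeR adjusted p = 0.104). Without WT replicate 3 it was -1.07 and passed (edgeR adjusted p = 0.0114), without WT replicate 1 it was -0.42 (edgeR adjusted p = 0.366), and with all libraries it passed by DESeq2 (adjusted p = 0.0399).

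Of the cytokine genes, Il10 rose the most of the 8 genes on the log2 scale, with few reads in WT libraries. IL-10 dampens antigen presentation and inflammatory cytokine production. Reads of Il10 numbered 106, 43 and 86 in the libraries labelled Srsf1-cKO, which is 11.5, 4.80 and 8.07 CPM. In WT libraries it was at 10, 10 and 9 reads, or 1.11, 1.30 and 1.19 CPM. The groups lay far apart, although the libraries labelled Srsf1-cKO also differed among themselves. The summed reads were 235 (exact Poisson 95% interval 206 to 267) in the libraries labelled Srsf1-cKO and 29 (19.4 to 41.6) in WT libraries, and these intervals cover counting error only. Its log2 fold change of 2.75 (SE 0.39) had a 95% confidence interval of 1.87 to 3.63 and an edgeR adjusted p = 0.00663. It was called in each of the 14 alternatives on counts that tested it.

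Ebi3 encodes a subunit that IL-27 and IL-35 share. Its levels were 21.0, 26.8 and 22.8 CPM in the libraries labelled Srsf1-cKO, against 33.8, 22.5 and 34.6 CPM in WT libraries. The groups overlapped, with WT replicate 2 among the low values. Ebi3 did not pass, at a log2 fold change of -0.37 (SE 0.20; interval at 95% confidence -0.83 to 0.09; edgeR adjusted p = 0.231). Its partner genes were barely detected: Il27 had no read in any library, and Il12a averaged 0.567 CPM in the libraries labelled Srsf1-cKO and 0.124 CPM in WT libraries, below the filter.

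**Figure D2:**
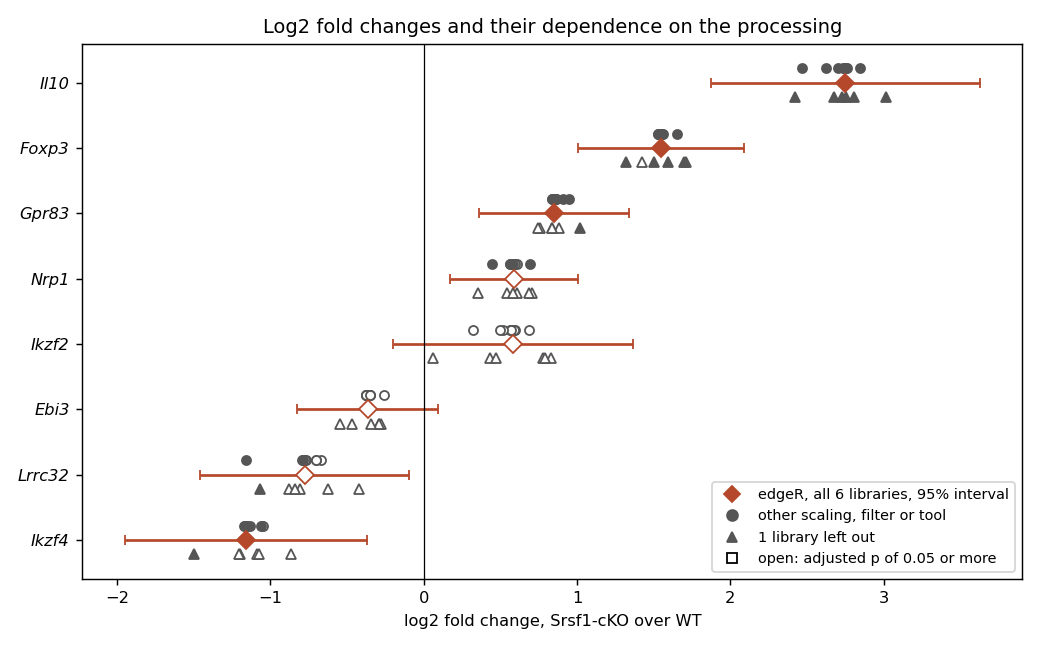
Log2 fold change (Srsf1-cKO over WT) of each gene with all 6 libraries and its 95% interval (diamonds), under other scalings, filters and tools (circles) and with 1 library left out (triangles). Open symbols have an adjusted p of 0.05 or more. Il10 and Foxp3 lie farthest to the right, and Ikzf4 (-1.16) farthest to the left.

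Levels between genes can be compared only per length, as FPKM. In the libraries labelled Srsf1-cKO the mean FPKM levels were 17.6 ± 2.74 for Ebi3, 11.9 ± 3.07 for Nrp1, 9.94 ± 1.82 for Lrrc32, 6.53 ± 1.77 for Foxp3, 5.35 ± 2.11 for Il10, 3.82 ± 0.0527 for Gpr83, 3.10 ± 1.61 for Ikzf2 and 1.22 ± 0.148 for Ikzf4 (SD, n = 3). Each neighbouring pair in this order overlapped in its library values, except that Ikzf2 lay above Ikzf4 in all 3 libraries. In WT libraries the order began with Ebi3 (20.6 ± 3.73 FPKM), Lrrc32 (15.8 ± 6.51) and Nrp1 (7.30 ± 0.535). Next came Ikzf4 (2.50 ± 1.09), Foxp3 (2.14 ± 0.429), Gpr83 (1.996 ± 0.548) and Ikzf2 (1.93 ± 0.611), whose library values overlapped from each to the next, and Il10 was lowest (0.704 ± 0.124). In WT libraries the values of Lrrc32 and Nrp1, of Nrp1 and Ikzf4, and of Ikzf2 and Il10 did not overlap, while those of Ebi3 and Lrrc32 did. By mean FPKM Foxp3 was above Ikzf4 in the libraries labelled Srsf1-cKO and below it in WT libraries, and Il10 lay between Foxp3 and Gpr83 in the libraries labelled Srsf1-cKO and last in WT libraries.

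**Figure D3:**
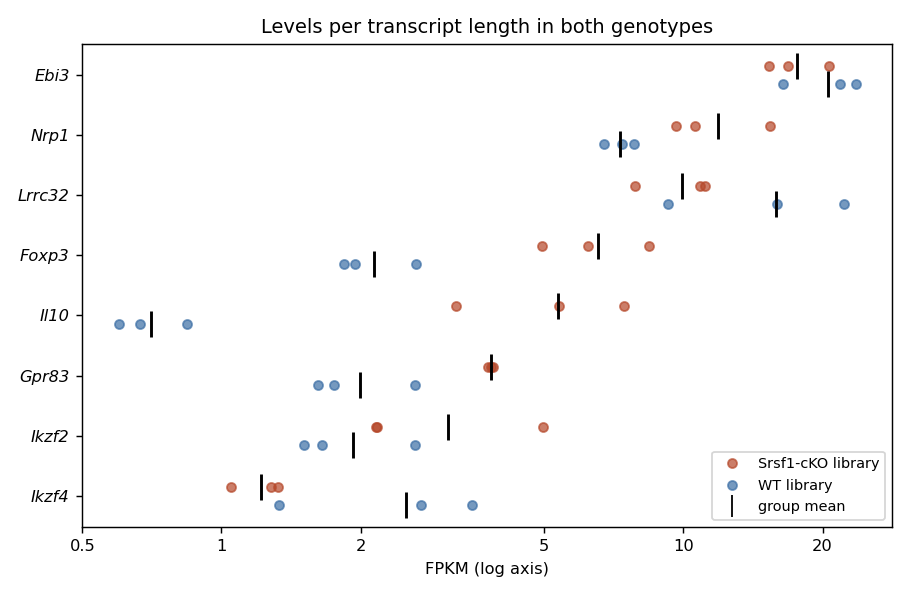
FPKM (log axis) of each gene in the libraries labelled Srsf1-cKO and in WT libraries, ordered by the mean in the libraries labelled Srsf1-cKO. Il10 shows the widest gap between the groups (means of 5.35 FPKM in the libraries labelled Srsf1-cKO and 0.704 FPKM in WT libraries), and Ebi3 is the highest gene in both.

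On the FPKM scale limma called 18.7% of 9617 genes, 12.3% higher and 6.39% lower. It called Il10 (1.84, limma adjusted p = 0.00769), Foxp3 (1.25, limma adjusted p = 0.0107) and Gpr83 (0.70, limma adjusted p = 0.0261) higher, and it called none of the other 5; these are differences of log2(FPKM + 1), which understate the change of low genes. Without WT replicate 1 neither Il10 (limma adjusted p = 0.0544) nor Foxp3 (0.0630) passed on this scale, and without Srsf1-cKO replicate 2 Foxp3 did not (0.0634). Gpr83 did not pass on it with no filter (limma adjusted p = 0.0576), nor without WT replicate 1 or any 1 library labelled Srsf1-cKO (0.0606 to 0.110).

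The libraries of a group were not alike. Srsf1-cKO replicate 3 was the highest of all 6 libraries for 4 of the 8 genes, and WT replicate 2 was the highest WT library for 6. The profiles closest to that of Foxp3 over the 6 libraries were sought among 9867 other tested genes (mean log2 CPM 1 or higher), by the root mean square difference of log2 CPM after centring each gene. The closest 5 were Taf9b (0.115), Tmem126a (0.123), D430020J02Rik (0.138), Prdx4 (0.140) and Man2c1 (0.141). Taf9b, a subunit of transcription initiation complexes, had 8.86, 10.5 and 16.9 CPM in the libraries labelled Srsf1-cKO, against 2.98, 5.46 and 3.70 CPM in WT libraries. The same difference was 0.402 for Gpr83, 0.493 for Nrp1, 0.559 for Ikzf2, 0.676 for Il10, 1.01 for Ebi3, 1.22 for Lrrc32 and 1.36 for Ikzf4. This difference includes any gap in fold change from Foxp3, so Il10, which rose more, also scored as less close. By this measure many genes outside the set were closer to Foxp3 than the other 7 were, Gpr83 being 316th among all tested genes. Whether the genes vary together within a genotype was not tested.

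Other genes of regulatory T cells moved in both directions. Of 25 further genes listed for this lineage 23 were tested, and 5 rose, 3 fell and 15 gave no call. This is 34.8% called, beside 18.4% of all tested genes, with a median log2 fold change of 0.14. Ctla4, Tnfrsf18 and Entpd1, named with their values known, were among the 15 (edgeR adjusted p = 0.630, 0.881 and 0.449). Penk, the gene of proenkephalin, averaged 18.1 ± 2.45 CPM in the libraries labelled Srsf1-cKO and 2.48 ± 0.838 CPM in WT libraries (edgeR adjusted p = 0.00347). Areg, the gene of the tissue repair factor amphiregulin, had 18, 18 and 35 reads in the libraries labelled Srsf1-cKO, against 1, 2 and 1 reads in WT libraries. Il1rl1, the gene of the IL-33 receptor, averaged 1.96 ± 0.874 CPM in the libraries labelled Srsf1-cKO and 0.329 ± 0.0632 CPM in WT libraries (edgeR adjusted p = 0.0160). Both low genes rose, Areg with an edgeR adjusted p = 0.00667. Ccr8, a chemokine receptor gene, and Fgl2, chosen after their values were seen, also rose (log2 fold changes 1.44 and 1.95). Cd83, an activation marker gene, fell to 212 ± 46.3 CPM in the libraries labelled Srsf1-cKO, against 430 ± 98.1 CPM in WT libraries, as did Nt5e, the gene of CD73 (-1.16), and Lag3, an inhibitory receptor gene (-1.24), the last pair chosen after their values were seen. Lag3 did not pass on the FPKM scale (limma adjusted p = 0.0752). Il2ra, the gene of CD25 and the most abundant of the list, stood at 4905 ± 474 CPM in the libraries labelled Srsf1-cKO and 3801 ± 111 CPM in WT libraries. It did not pass by counts (log2 fold change 0.37, edgeR adjusted p = 0.0641), while on the FPKM scale it was called higher (0.47, limma adjusted p = 0.0235). FPKM were not TMM scaled, and on that scale 12.3% of all genes were called higher and 6.39% lower.

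Of 27 genes known to control Foxp3 transcription, chromatin or protein stability, 2 rose and 3 fell, with a median log2 fold change of -0.06. This is 18.5% of the list, beside 18.4% of all tested genes, which is about the same share. Gata3, which can bind the Foxp3 locus and is the factor of type 2 helper cells, averaged 85.4 ± 24.1 CPM in the libraries labelled Srsf1-cKO and 38.5 ± 8.17 CPM in WT libraries (edgeR adjusted p = 0.0138). Uhrf1, which maintains DNA methylation, rose as well, at 86.3 ± 13.0 CPM in the libraries labelled Srsf1-cKO and 53.2 ± 6.75 CPM in WT libraries (edgeR adjusted p = 0.0222). Nr4a1, a nuclear receptor gene induced by the T cell receptor that promotes Foxp3 transcription, fell to 407 ± 114 CPM in the libraries labelled Srsf1-cKO, against 1129.9 ± 287 CPM in WT libraries (edgeR adjusted p = 0.00912). Rel, the gene of the NF-kB subunit c-Rel that also promotes it, fell to 249 ± 51.5 CPM in the libraries labelled Srsf1-cKO, against 435 ± 21.2 CPM in WT libraries (edgeR adjusted p = 0.0130). Foxo3, picked out with its value known, was the third that fell (-0.60, edgeR adjusted p = 0.0373). On the FPKM scale Foxo3 did not pass (limma adjusted p = 0.0928). Stat5a, which carries the IL-2 signal to Foxp3 and was the most abundant, stood at 1052 ± 169 CPM in the libraries labelled Srsf1-cKO and 962 ± 124 CPM in WT libraries (edgeR adjusted p = 0.597).

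Of 7 regulators of Il10, 1 rose and 1 fell (28.6%, beside 18.4% of all tested genes). Bhlhe40, a repressor of Il10, fell to 378 ± 80.6 CPM in the libraries labelled Srsf1-cKO, against 768 ± 124 CPM in WT libraries (edgeR adjusted p = 0.0113). Ahr, a ligand-activated factor that can promote Il10, averaged 24.1 ± 6.56 CPM in the libraries labelled Srsf1-cKO and 13.9 ± 2.07 CPM in WT libraries and rose (edgeR adjusted p = 0.0454). By FPKM Ahr did not pass (limma adjusted p = 0.0534). Irf4, the most abundant, stood at 4053 ± 189 CPM in the libraries labelled Srsf1-cKO and 3118 ± 321 CPM in WT libraries (edgeR adjusted p = 0.0643). Batf stood at 149 ± 22.5 CPM in the libraries labelled Srsf1-cKO and 131 ± 16.1 CPM in WT libraries (edgeR adjusted p = 0.436). Maf, Prdm1 and Nfil3, also on this list and named with their values known, did not pass. Their log2 fold changes were -0.016, -0.31 and -0.37 (edgeR adjusted p = 0.989, 0.545 and 0.554). Whether any of these regulators had a part in the rise of Il10 was not tested. Of 7 genes of the IL-10 receptor and its signalling, 1 rose (14.3%, below the 18.4% of all tested genes), Socs3, a feedback inhibitor gene, at 26.7 ± 5.004 CPM in the libraries labelled Srsf1-cKO and 13.5 ± 1.601 CPM in WT libraries (edgeR adjusted p = 0.0138). Jak1, the most abundant of these, averaged 463 ± 44.3 CPM in the libraries labelled Srsf1-cKO and 585 ± 85.5 CPM in WT libraries (edgeR adjusted p = 0.131), and Bcl3 and Stat3 did not pass either (edgeR adjusted p = 0.311 and 0.483).

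The partners of the surface molecules gave the following. Of 13 genes of latent transforming growth factor beta and its activation 8 were tested, and 3 rose and 1 fell, beside 8.9% of all tested genes called higher and 9.5% lower. Itgav, the integrin alpha V gene, averaged 581 ± 101 CPM in the libraries labelled Srsf1-cKO and 285 ± 5.06 CPM in WT libraries (edgeR adjusted p = 0.00663). Itgb8, the gene of its beta 8 partner, which helps regulatory T cells to activate the latent cytokine, had 54 reads in all in the libraries labelled Srsf1-cKO and 3 in WT libraries, a ratio of 15.2 after scaling (exact counting interval 4.92 to 75.8). Tgfb2 averaged 2.46 ± 0.306 CPM in the libraries labelled Srsf1-cKO and 0.242 ± 0.103 CPM in WT libraries (edgeR adjusted p = 0.00667). Nrros, which like Lrrc32 tethers the latent cytokine, but on myeloid cells, fell to 49.0 ± 4.56 CPM in the libraries labelled Srsf1-cKO, against 78.5 ± 5.02 CPM in WT libraries (edgeR adjusted p = 0.0137). Furin, the protease gene that is most abundant here, stood at 776 ± 259.5 CPM in the libraries labelled Srsf1-cKO and 799.9 ± 157 CPM in WT libraries (edgeR adjusted p = 0.915).

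For Nrp1, 6 of 10 genes of ligands, coreceptors and a related receptor were tested, and 1 fell (16.7%, beside 18.4% of all tested genes), with a median log2 fold change of -0.60. Vegfa, a ligand gene and the most abundant of these, fell to 98.7 ± 32.6 CPM in the libraries labelled Srsf1-cKO, against 183 ± 31.9 CPM in WT libraries (edgeR adjusted p = 0.0377). It did not pass on the FPKM scale (limma adjusted p = 0.0581). Plxna3 and Nrp2 were under 5 CPM in both groups and did not pass (edgeR adjusted p = 0.0588 and 0.154). Plxnd1, a semaphorin receptor gene, stood at 99.1 ± 17.8 CPM in the libraries labelled Srsf1-cKO and 69.7 ± 24.2 CPM in WT libraries (edgeR adjusted p = 0.167). Of 8 genes of Ebi3 partners and receptors 5 were tested and edgeR called 0 (2 at an unadjusted p under 0.05, and DESeq2 and limma-voom 0). Il6st, the gene of the shared receptor gp130 and the most abundant, stood at 85.9 ± 2.95 CPM in the libraries labelled Srsf1-cKO and 81.0 ± 3.19 CPM in WT libraries (edgeR adjusted p = 0.641), and Il27ra, Il12rb2 and Il23a had edgeR adjusted p = 0.133, 0.139 and 0.262.

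**Figure D4:**
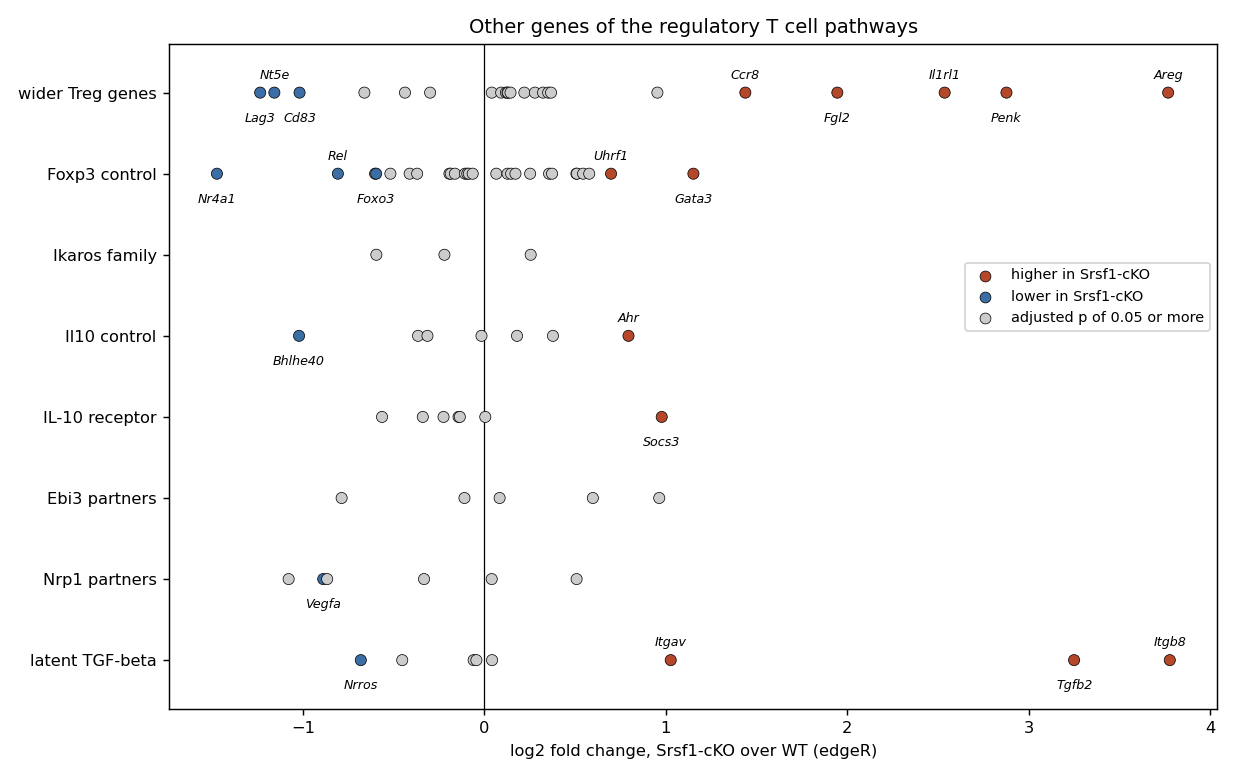
Log2 fold change (Srsf1-cKO over WT, edgeR) of every tested gene in the 8 lists of related genes, 1 point a gene. Coloured and named points passed at an adjusted p under 0.05; the wider list holds 5 higher and 3 lower, and the Ikaros and Ebi3 rows hold no coloured point.

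In all, 21 of the 86 tested genes of these 8 lists passed (12 higher, 9 lower), which is 24.4%, beside 18.4% of all tested genes. Without WT replicate 1, 6 of them passed, and without Srsf1-cKO replicate 2, 7 passed, while 17 and 21 passed without WT replicates 2 and 3, and 19 and 15 without Srsf1-cKO replicates 1 and 3. No sign changed in these fits. Foxo3 passed in only 1 of them, and Ahr, Vegfa and Lag3 in 2 each, while Penk, Areg, Itgav, Itgb8 and Tgfb2 passed in all. For Itgb8, with its 3 WT reads, the fitted log2 fold change was 4.55 without WT replicate 1 and 3.78 with all libraries.

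Markers of other cell types were counted in the same way, beside 8.9% of all tested genes called higher. Of 7 B cell markers 6 were tested and 1 rose, Cd79a, at 2.30 ± 0.628 CPM in the libraries labelled Srsf1-cKO and 0.525 ± 0.346 CPM in WT libraries. Their summed level was 10.1 to 29.0 CPM in the libraries labelled Srsf1-cKO and 1.58 to 9.63 CPM in WT libraries, with Ms4a1 the most abundant (edgeR adjusted p = 0.0545). Of 8 myeloid markers 4 were tested and 1 rose, Lyz2, at 7.31 ± 5.84 CPM in the libraries labelled Srsf1-cKO and 0.874 ± 1.09 CPM in WT libraries, with sums of 14.9 to 27.9 CPM in the libraries labelled Srsf1-cKO and 5.54 to 8.06 CPM in WT libraries. Of 7 dendritic cell markers 4 were tested and 2 rose, H2-Aa and Cd74. H2-Ab1 and Zbtb46 went the other way and did not pass (log2 fold changes -0.29 and -0.62, edgeR adjusted p = 0.693 and 0.412). Sums were 106 to 128 CPM in the libraries labelled Srsf1-cKO and 61.0 to 81.8 CPM in WT libraries. Cd74 was the most abundant, at 81.7 CPM in the libraries labelled Srsf1-cKO and 45.1 CPM in WT libraries. Siglech, which marks plasmacytoid dendritic cells, had no read. B cells and myeloid cells can express Il10 and Ebi3, and the part of such cells in the results for Il10 and the other genes was not tested. Of 4 endothelial markers, Cdh5, Tek and Emcn had no read in any library, while Pecam1, which leukocytes also express, stood at 124.3, 92.7 and 85.1 CPM in the libraries labelled Srsf1-cKO and 76.9, 90.5 and 79.6 CPM in WT libraries (edgeR adjusted p = 0.246). Endothelial cells express Nrp1, and their part in its values was not tested. For Lrrc32, which platelets also express, the platelet markers Gp9 and Gp1bb had no read, and the summed level of 5 platelet markers was 0.893 to 2.72 CPM in the libraries labelled Srsf1-cKO and at most 0.332 CPM in WT libraries. Pf4 had 4, 3 and 12 reads in the libraries labelled Srsf1-cKO and Ppbp 0, 3 and 4, with 0 in each WT library. Itga2b had 5, 2 and 13 reads in the libraries labelled Srsf1-cKO and 3, 0 and 2 in WT libraries. The part of platelets in the values of Lrrc32 was not tested. Sums of CD8 T cell markers were 16.7 to 22.8 CPM in the libraries labelled Srsf1-cKO and 24.6 to 42.5 CPM in WT libraries. Nearly all of this was Cd8b1, which did not pass (edgeR adjusted p = 0.115). Cd8a, below the filter, had 1, 2 and 13 reads in the libraries labelled Srsf1-cKO and 3, 4 and 3 in WT libraries. Erythroid sums reached at most 0.188 CPM in any library. Hba-a1, an erythroid marker with no read in the counts, had 0.330, 0.836 and 0.784 FPKM in the libraries labelled Srsf1-cKO. It had 0 FPKM in each WT library, and this difference was not tested. Of 5 NK cell markers 1 was tested, Eomes, which CD4 T cells can also express, and it fell (log2 fold change -1.77). Ncr1 and Klra8 had no read in the counts. Below the filter, Klre1 had 2, 2 and 15 reads in the libraries labelled Srsf1-cKO and 3, 0 and 1 in WT libraries. Klrb1c, also below it, had 0, 1 and 3 reads in the libraries labelled Srsf1-cKO and 0, 1 and 1 in WT libraries.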

How the data were processed

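Read counts per gene, not normalized, were deposited by the authors for 6 libraries. The submitters' processing notes name STAR, Cufflinks and build mm9, and the alignment report's header gives STAR 2.4.2a. Reads were 75 bases, single-end, from a stranded kit, per the design text deposited with the labels. A second deposited table was read as FPKM from its values. The annotation, counter and strand setting were not given in the sources used here. Counts were tested with edgeR 4.0.16 (R 4.3.3; quasi-likelihood, two-sided, filterByExpr, TMM, Benjamini-Hochberg), genotype being the only term, and FPKM with limma 3.58.1 with a trend on log2(FPKM + 1), keeping genes that reached 1 FPKM in 3 libraries. Both were run on simulated data with the same spread assumed for every gene, a simpler setting than these libraries. That run checks the calculation and not how well the tests suit these libraries. CPM are counts scaled by TMM library size, while FPKM were taken as deposited, without this scaling. Fold changes are Srsf1-cKO over WT. Replicates differed by more than sampling noise (chi-square per degree of freedom 6.25 to 37.5), and the design text gives separate mice. Related lists name up to 4 genes by adjusted p and the most abundant one. The 8 genes and all lists were chosen with earlier results of these data known. Alternatives were other scalings, filters and thresholds, DESeq2 1.42.0, limma-voom, a replicate block and each library left out. RefSeq sequences are of build GRCm38.p6, not the files' build. One gene of the related lists is not reported here.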

Additional observations from a re-analysis of the deposited data

How the results depend on the processing

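None of the 8 genes changed direction in any alternative, by counts or FPKM. Il10 kept its call in all 14 alternatives on counts that tested it (a mean CPM of 5 or more left it out), and Foxp3 in 14 of 15, Gpr83 in 10 and Ikzf4 in 6 of 15. On FPKM, Il10 kept its call in 8 of 9 alternatives, Foxp3 in 7 and Gpr83 in 4. The number of the 8 called higher was 1 to 3 with 1 library left out. The number called lower was 0 with upper-quartile or library-size scaling, a mean CPM of 5 or more, limma-voom, or an adjusted p under 0.01. It was 2 with DESeq2 or sample weights (Ikzf4 and Lrrc32), and 0 to 2 with 1 library left out. Library-size scaling moved the median over all genes to 0.11 (log2), with 1268 genes higher and 709 lower. Over all genes, 2213 were higher and 2142 lower with sample weights, 133 and 146 at an adjusted p under 0.01, and 1452 and 1520 under 0.1, against 930 and 993. With 1 library left out, 80 to 968 were higher and 103 to 1074 lower, the fewest calls in all being without WT replicate 1 or Srsf1-cKO replicate 2. On FPKM, 1186 were higher and 615 lower, 756 and 390 with no filter, and 41 to 1331 and 22 to 634 with 1 library left out. Deviations of same-numbered libraries had correlations of 0.222, 0.0128 and 0.272, and those of unlike-numbered libraries lay between -0.318 and 0.201. The labels name no batch, and the main fits did not take the numbers as pairs. Whether they mark pairs is not settled by these values. With a replicate block 4 of the 8 were higher (Nrp1 added, log2 fold change 0.56, edgeR adjusted p = 0.0414) and 1 lower, and over all genes 1118 were higher and 1152 lower (1380 and 659 on FPKM). With 3 libraries a group, exact permutation tests cannot go below p = 0.1. The Il10 value rests on 9 or 10 reads in each WT library.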
